A study of Mus musculus with 9 samples.

Results

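A set of 2431 genomic regions carried a deposited Stat5b peak at 13 h of Th2 differentiation and no Stat5a or Stat5b peak at 8 h or after 2 rounds. They were found by joining the 6 deposited peak lists where peaks shared 1 bp or more, with the mitochondrial chromosome left out, and they made up 5.56% of the 43766 merged regions. Regions with peaks at 13 h alone numbered 8770 whichever antibody gave the peak, so 27.7% of them had the Stat5b peak. Of the 2431 members, 328 (13.5%) also carried a 13 h Stat5a peak and 2103 did not. The other 6339 regions at 13 h alone had a Stat5a peak without Stat5b, and 5772 regions with a Stat5b peak were first listed at 13 h and were listed again after 2 rounds ("gained and kept" below).

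The libraries were chromatin immunoprecipitates with antibodies against Stat5b and Stat5a and with a control IgG, from mouse CD4+ T cells under Th2 conditions. There were 9 libraries, 1 for each antibody at each stage, the stages being 8 h, 13 h and 2 rounds of differentiation. The labels state no strain, genotype, age or pooling of the animals. No expression values were used, so the labelled cell type was not checked against marker genes. With 1 library per group there is no spread between replicates and no p-value, and each ratio of reads per 1000000 reads of the library (RPM) carries a 95% exact conditional (Clopper-Pearson) interval that covers counting error only.

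STAT5A and STAT5B are closely related transcription factors encoded by neighbouring genes. They wait in the cytoplasm until Janus kinases at an activated cytokine receptor, such as that for IL-2, phosphorylate them, after which they dimerise, enter the nucleus and bind GAS elements in DNA. In CD4+ T cells IL-2 acting through Stat5 is known to favour Th2 differentiation, in which cells come to produce IL-4, IL-5 and IL-13. An IgG control precipitates chromatin without a chosen target and so gives the background of a region. A gene table of the mm8 build was not used here, so the members are given by position and none is assigned to a gene.

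The members were narrow regions with few reads. Their width ran from 115 to 921 bp with a median of 293 bp, the median being 379 bp with a 13 h Stat5a peak and 289 bp without one. They covered 770.3 kb. By comparison the gained and kept regions had a median width of 726 bp. The 2433 Stat5b peaks in members were 19.1% of the 12769 Stat5b peaks at 13 h, and 84.1% of them held no more reads than the median peak of that list, 22 reads. Their median was 15 reads (range 7 to 100), against 25 reads (range 6 to 3531) in the other Stat5b peaks at 13 h, and 5 of them were in the upper 10% of the list. The members thus came mostly from the lower part of the authors' Stat5b list.

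Members lay on every chromosome named in the lists except Y. Chromosome 11 held the most, 202, followed by chromosome 2 with 195 and chromosome 1 with 188, and X held 48. Across chromosomes 1 to 19 and X, between 4.22% (chromosome 8) and 6.33% (chromosome 1) of the merged regions were members, so their spread was close to that of all regions. Most stood alone: with gaps of up to 10000 bp there were 129 pairs, 17 runs of 3 and 1 run of 4, at chr15:27572699-27586493 (mm8). With gaps of up to 50000 bp the longest run had 6 members, at chr11:108065369-108159771. In 1 member, reads were heaped at a single start and strand, and it was not eligible to be named below.

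Depth ranged from 3130228 reads in the 8 h Stat5a library to 9036070 reads in the 13 h Stat5b library. The 13 h Stat5b library was thus the deepest of the 9, and the other 7 lay between 5787254 and 8311042 reads. Reads were 25 bp long, but the 13 h Stat5a and IgG libraries also held 24 bp reads, 38.0% and 49.7% of their totals. After 2 rounds the shares were 54.5% for Stat5a and 77.3% for IgG. The Stat5b libraries and all 8 h libraries held none. Within members the share of 24 bp reads was 28.7% for Stat5a and 53.6% for IgG at 13 h, and 47.2% and 74.75% after 2 rounds. Ratios that involve IgG or Stat5a at these stages thus mix read lengths. Reads of class U0, a unique match without mismatch in the ELAND naming, made up 61.6% of the 13 h Stat5b reads in members and 56.5% of those in the whole library, so members did not gather poorly matched reads.

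At 13 h Stat5b was the tallest signal in the members, as their selection fixed. Summed over all members, Stat5b had 5.89 RPM per kb at 13 h, Stat5a 2.38 and IgG 0.758. Stat5b was thus 7.77-fold (7.54 to 8.02) over IgG at 13 h, a value that describes the chosen peaks. Taken singly, 1151 members (47.4%) had a Stat5b interval wholly above 2-fold over IgG and none had one wholly below 0.5-fold. Over all 43766 regions 17.5% were called higher and 0.0891% lower by the same rule, and since the rule chose these regions by Stat5b peaks nothing is read from the excess. A member with no IgG read needed 11 Stat5b reads for such a call, and 1555 members had at least 1 IgG read at 13 h. On distinct starts, where reads repeated at a start and strand count as 1, the call was made in 322 members (13.25%). Of all regions 9.06% were called higher on distinct starts.

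Across the stages Stat5b followed the peak lists, at levels that were low but above IgG before and after 13 h. Over all members Stat5b had 1.60 RPM per kb at 8 h, 5.89 at 13 h and 3.09 after 2 rounds, while IgG had 0.937, 0.758 and 1.36 RPM per kb at the same stages. The ratio of Stat5b to IgG was 1.71 (1.64 to 1.77) at 8 h and 2.26 (2.20 to 2.33) after 2 rounds, where no member has a deposited peak. Absence from a peak list therefore did not mean absence of Stat5b reads. Only 397 members (16.3%) had no Stat5b read at 8 h and 189 (7.78%) had none after 2 rounds, a count that depends on depth.

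**Figure D1:**
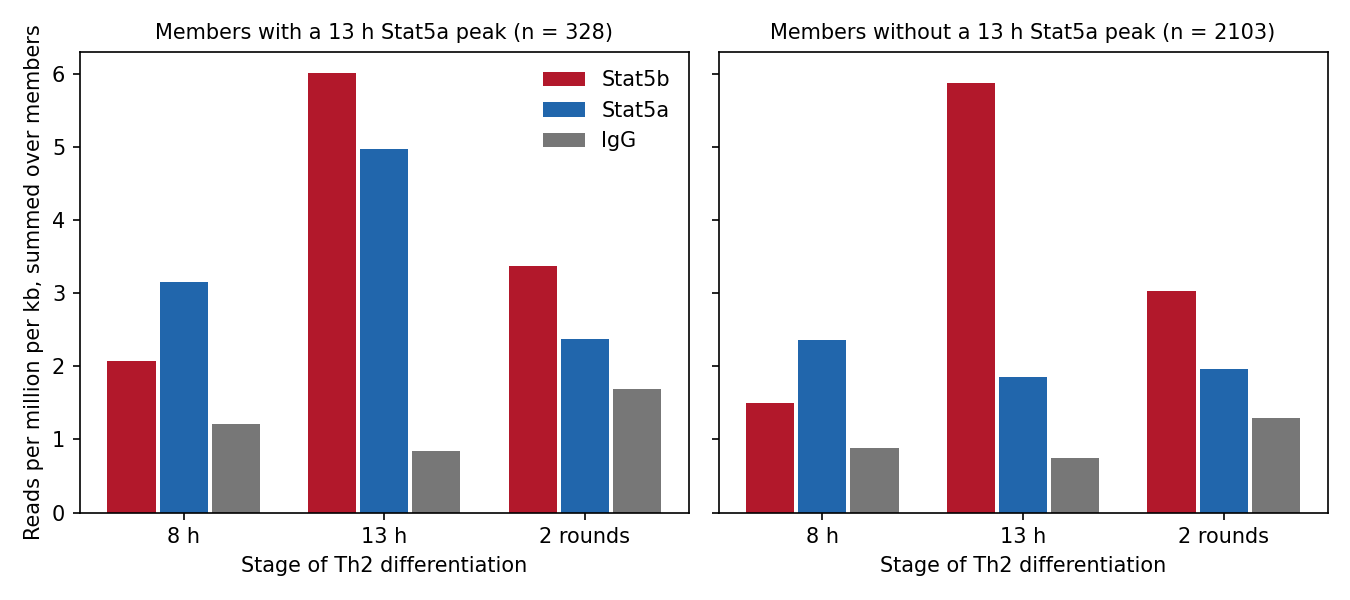
RPM per kb summed over members with a 13 h Stat5a peak (left, n = 328) and without one (right, n = 2103), at 8 h, 13 h and after 2 rounds; bars are single libraries of Stat5b, Stat5a and IgG, with no replicates. Stat5b stands near 6 RPM per kb at 13 h on both sides, whereas Stat5a at 13 h is 4.98 on the left and 1.85 on the right.

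Stat5b at 13 h was 3.69-fold (3.60 to 3.77) its level at 8 h, and after 2 rounds it was 0.524-fold (0.515 to 0.533) its level at 13 h. Of the members, 2395 had more Stat5b RPM at 13 h than at 8 h, and 2140 had fewer after 2 rounds than at 13 h. Single members passed the interval rule less often: 447 were called higher and 0 lower at 13 h over 8 h, where 5.27% and 0.304% of all regions were. After 2 rounds over 13 h, 0 were called higher and 215 lower, where 25.1% and 0.637% of all regions were. These contrasts were used by the selection, so the counts describe the members and are no evidence of a change. On distinct starts 76 members were called higher over 8 h and 16 lower after 2 rounds, where 1.13% and 0.0663% of all regions were. With all reads both calls were made in 82 members, the 8 h call alone in 365, the 2 rounds call alone in 133 and neither in 1851. The matching shares over all regions were not computed, so nothing is read from this overlap.

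The gained and kept regions ran the other way after 2 rounds, which their selection also fixed. Their Stat5b was 2.20-fold (2.18 to 2.21) the 13 h level after 2 rounds, and 7.61-fold over IgG at that stage. Since these regions are wider, the sets were compared in equal windows of 300 bp around the 13 h Stat5b peaks, a setting chosen after the data were seen. In these windows Stat5b over IgG at 8 h was 1.69 (1.63 to 1.75) in members and 1.78 (1.75 to 1.82) in the gained and kept regions. At 13 h it was 7.53 (7.29 to 7.78) in members and 7.32 (7.19 to 7.46) in the gained and kept regions, and after 2 rounds 2.29 (2.22 to 2.36) and 9.98 (9.81 to 10.2). The sets thus differed far more after 2 rounds, as their selection fixed, than at 8 h or 13 h.

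The 13 h Stat5a library did not decide which regions were members, apart from the 8 Stat5b peaks left out through joining that are described below, and it held reads in the members above IgG. Over all members Stat5a was 3.14-fold (3.04 to 3.25) over IgG at 13 h. It was 5.91-fold (5.49 to 6.36) in the 328 members with a deposited Stat5a peak, which that split fixed, and 2.50-fold (2.40 to 2.59) in the 2103 members without one. More Stat5a than IgG RPM was found in 1842 members (75.8%), and in 72.1% of those without a Stat5a peak, but also in 79.2% of all merged regions. In 300 bp windows around the Stat5b peaks the ratio was 3.05 (2.94 to 3.16) in members and 3.90 (3.82 to 3.97) in the gained and kept regions.

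Region by region, Stat5a was called higher than IgG at 13 h in 193 members (7.94%) and lower in none, whereas 13.9% of all merged regions were called higher and 0.0503% lower. Of these 193 members 136 had a Stat5a peak and 57 did not. The members' share was thus below that of all regions, whose median width was 488 bp. Both antibodies were called over IgG in 165 members, 112 with and 53 without a Stat5a peak. In the 53 the second antibody was called over IgG although the authors' Stat5a list has no peak there. The share of all merged regions with both calls was not computed, so nothing is read from these counts. Of the members without a Stat5a peak 2.71% were called for Stat5a, and none of these calls held on distinct starts. When each start and strand was counted once, Stat5a was called in 30 members (1.23%), where 3.74% of all regions were. All 30 had a Stat5a peak. That split rests on the same 13 h Stat5a library as the call, so nothing is read from it.

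The read lengths gave different sizes for this ratio. With 25 bp reads alone Stat5a was 3.92-fold (3.74 to 4.11) over IgG at 13 h, and with 24 bp reads alone, a setting chosen after the data were seen, it was 2.20-fold (2.10 to 2.32). In members without a Stat5a peak the values were 3.07 and 1.72, so the direction held in both. The part of read length in the ratio was not tested further.

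Stat5a in RPM showed no maximum at 13 h over all members. In all members Stat5a had 2.49 RPM per kb at 8 h, 2.38 at 13 h and 2.04 after 2 rounds, and it was 0.955-fold (0.927 to 0.984) its 8 h level at 13 h, and 1.10-fold with 25 bp reads alone. Over all merged regions the same ratio was 0.943. After 2 rounds Stat5a was 0.854-fold (0.833 to 0.876) its 13 h level in members and 1.31-fold in all merged regions. In members with a Stat5a peak it had 3.15, 4.98 and 2.37 RPM per kb at the 3 stages, a peak at 13 h that the split fixed. In members without one it had 2.36, 1.85 and 1.97 RPM per kb, so it was 0.783-fold (0.757 to 0.811) the 8 h level at 13 h, where Stat5b was 3.91-fold (3.81 to 4.02). After 2 rounds those members had 1.06-fold (1.03 to 1.10) the 13 h level of Stat5a and 0.516-fold (0.506 to 0.526) that of Stat5b.

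Against IgG of its own stage Stat5a in all members was 2.66-fold at 8 h, 3.14-fold at 13 h and 1.49-fold after 2 rounds, so this ratio was highest at 13 h. In members with a Stat5a peak it was 2.60-fold at 8 h and 5.91-fold at 13 h, and in those without 2.68-fold and 2.50-fold. Over all merged regions it was 1.82-fold, 2.42-fold and 2.02-fold at the 3 stages, so a maximum at 13 h was not particular to the members. At 8 h Stat5a in all members was thus farther above IgG than Stat5b, which stood at 1.71-fold. No member has an 8 h peak of either. The 8 h Stat5a library is the shallowest, with a median of 2 reads in a member. Single calls over 8 h were few, 5 higher and 38 lower at 13 h, where 0.286% and 2.15% of all regions were called. The 5 higher members all had a Stat5a peak and the 38 lower members all lacked one. The split and the calls both use the 13 h Stat5a library, so nothing is read from this separation. After 2 rounds over 13 h, Stat5a was called higher in 25 members and lower in 52, where 7.67% and 3.97% of all regions were. On distinct starts there were 0 calls in either direction over 8 h, where 0.00686% of all regions were called higher and 0.555% lower. After 2 rounds there were 0 higher and 1 lower, where 2.56% and 0.0594% of all regions were.

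**Figure D2:**
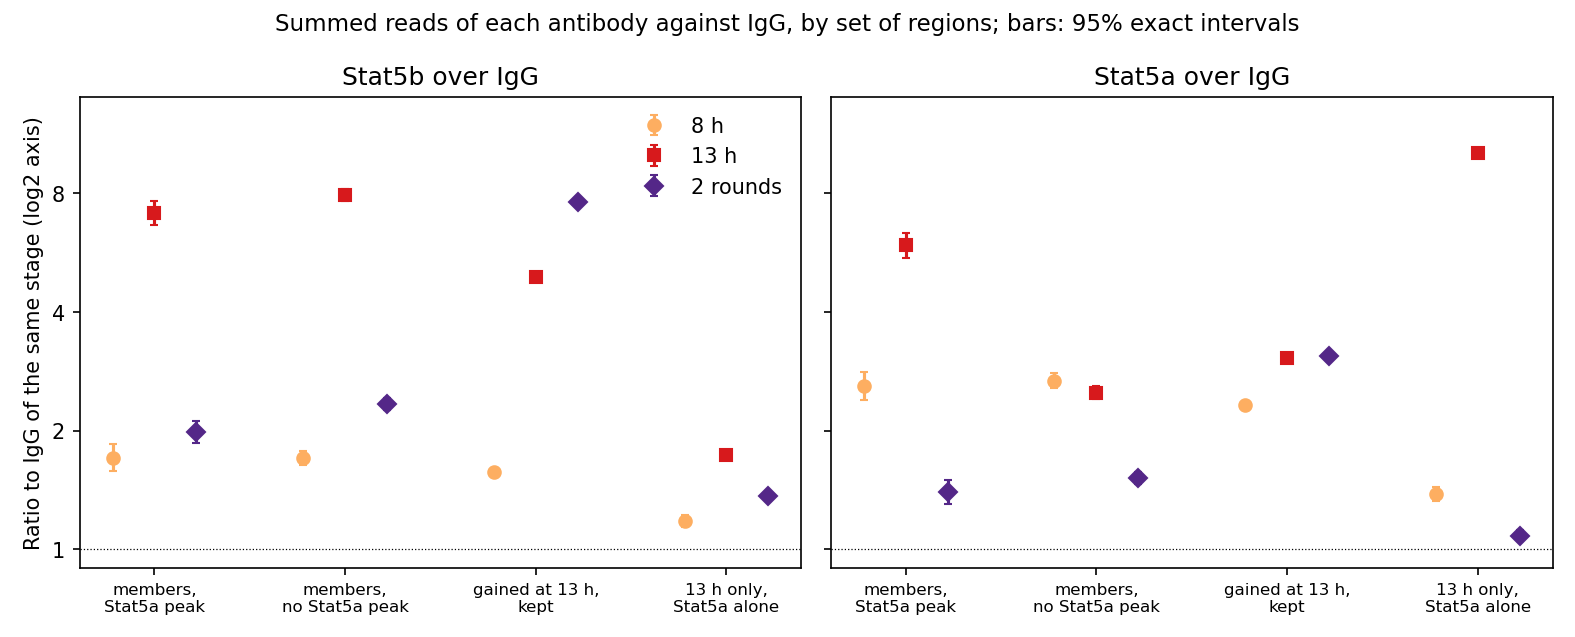
Ratio of summed RPM to IgG of the same stage (log2 axis) for Stat5b (left panel) and Stat5a (right panel) in 4 sets of regions of unequal width; symbols are 8 h, 13 h and 2 rounds, and bars are 95% exact intervals for counting error. In members without a Stat5a peak, Stat5b over IgG is highest at 13 h (7.93), whereas Stat5a over IgG is 2.68 at 8 h, 2.50 at 13 h and 1.52 after 2 rounds.

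IgG itself differed between stages in the same regions. In the members IgG at 13 h was 0.809-fold (0.776 to 0.843) its 8 h level, and after 2 rounds it was 1.80-fold (1.73 to 1.87) the 13 h level. IgG was called lower in 12 members and higher in 0 at 13 h over 8 h, where 0.462% and 0.254% of all regions were. After 2 rounds over 13 h it was called higher in 26 and lower in 0, where 0.644% and 0.0914% of all regions were. The 13 h IgG library was therefore the lowest of the 3 in the members, and with IgG pooled over the stages the 13 h ratios became 5.92 for Stat5b and 2.40 for Stat5a. In both steps the pooled Stat5b ratio lay on the other side of 1 from that of IgG.

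Calls over IgG at the other stages, where the selection left out regions with peaks, were few. At 8 h Stat5b was called higher in 32 members (1.32%) and lower in 4, where 2.92% and 0.114% of all regions were, and Stat5a higher in 102 (4.20%) and lower in 0, where 11.2% and 0.0274% were. After 2 rounds Stat5b was called higher in 64 (2.63%) and lower in 10, where 46.5% and 0.151% were, and Stat5a higher in 28 (1.15%) and lower in 9, where 13.9% and 0.0754% were. Each share of higher calls was below that of all regions. On distinct starts the higher calls were 3 for Stat5b and 9 for Stat5a at 8 h. After 2 rounds they were 1 for Stat5b and 0 for Stat5a. Of all regions 1.32%, 5.12%, 32.05% and 6.51% were called higher in the same order. Few members were thus called over IgG at a stage without a deposited peak once repeated reads counted as 1.

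The reads gathered around the centre of the Stat5b peaks. The density within 150 bp of the centre was set against that 1000 to 2000 bp away in the same library. At 13 h this ratio was 6.02 for Stat5b, 2.88 (2.82 to 2.94) for Stat5a and 1.38 (1.34 to 1.43) for IgG, so Stat5a showed a centred peak in regions chosen by Stat5b. In members without a Stat5a peak it was still 2.30 for Stat5a and 1.34 for IgG. Stat5a was centred on the same spot at 8 h, with 2.92 against 1.83 for IgG. After 2 rounds Stat5b was at 2.41, Stat5a at 2.37 and IgG at 2.10, but the 2 rounds flanks can hold peaks of that stage. In members over 1000 bp from an 8 h or 2 rounds peak the values after 2 rounds were 3.39 for Stat5b, 2.85 for Stat5a and 2.28 for IgG, and at 8 h 2.90, 3.57 and 2.01. In the gained and kept regions Stat5b after 2 rounds was at 8.43.

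**Figure D3:**
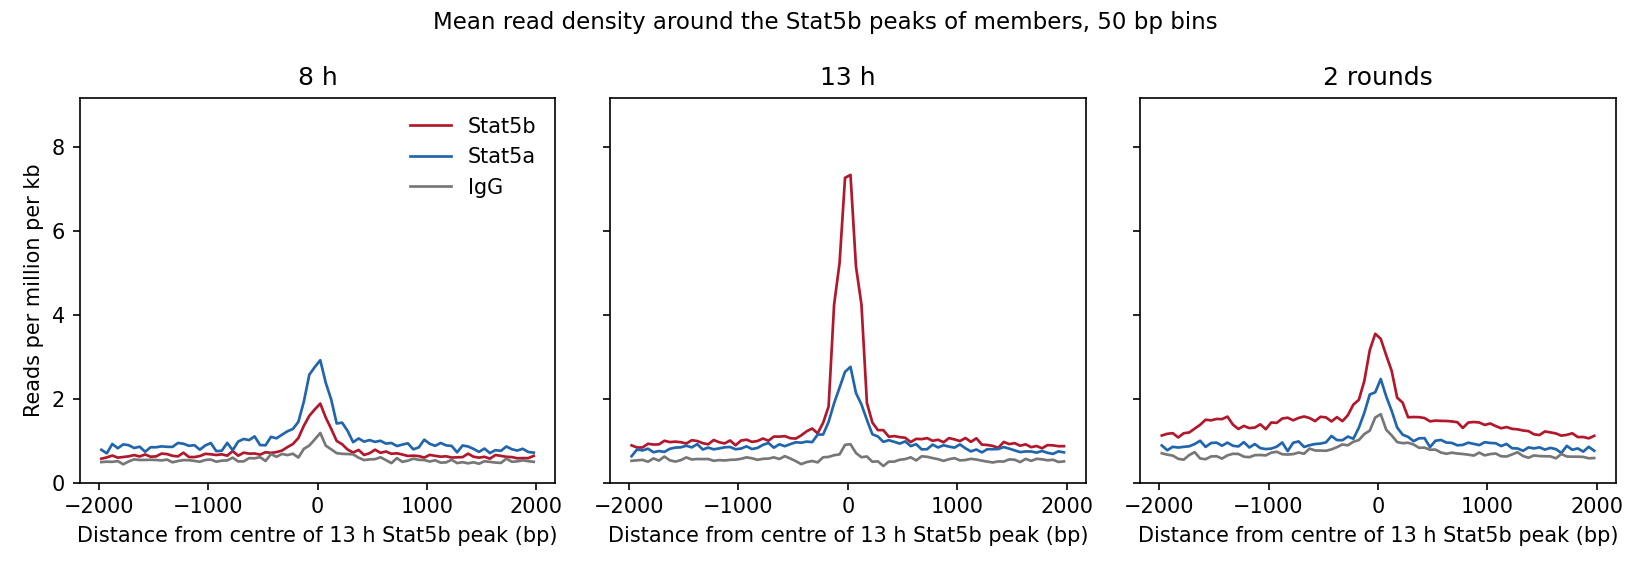
Mean read density of the 2431 members (RPM per kb, 50 bp bins) against distance in bp from the centre of the 13 h Stat5b peak, for Stat5b, Stat5a and IgG at 8 h, 13 h and after 2 rounds. All 3 libraries of each stage rise at the centre; Stat5b stands above Stat5a at 13 h and after 2 rounds, and Stat5a above Stat5b at 8 h.

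In ChIP-seq, reads come from the ends of fragments, so plus-strand starts gather upstream and minus-strand starts downstream of a bound site. The shift that best matched the strands was measured on distinct starts in members under 20 IgG reads. It was 96 bp for Stat5b and 97 bp for Stat5a at 13 h, and 26 bp, near the read length, for IgG. At these shifts the strand matches stood at 1.49, 1.48 and 1.78 times their mean over the shifts searched. At 8 h the shift was 86 bp for Stat5b and 85 bp for Stat5a, and after 2 rounds 116 bp and 102 bp, while IgG stayed between 26 and 29 bp. Split by the Stat5a peak, the 13 h shift in members with the peak was 86 bp for Stat5b and 97 bp for Stat5a, and in members without it 96 bp and 102 bp. When the 6 members with at least 20 IgG reads were included, the shift in members with the peak was 26 bp for Stat5b and 28 bp for Stat5a, like that of IgG, and over all members it was 27 bp for Stat5a, so these values rest on those 6.

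**Figure D4:**
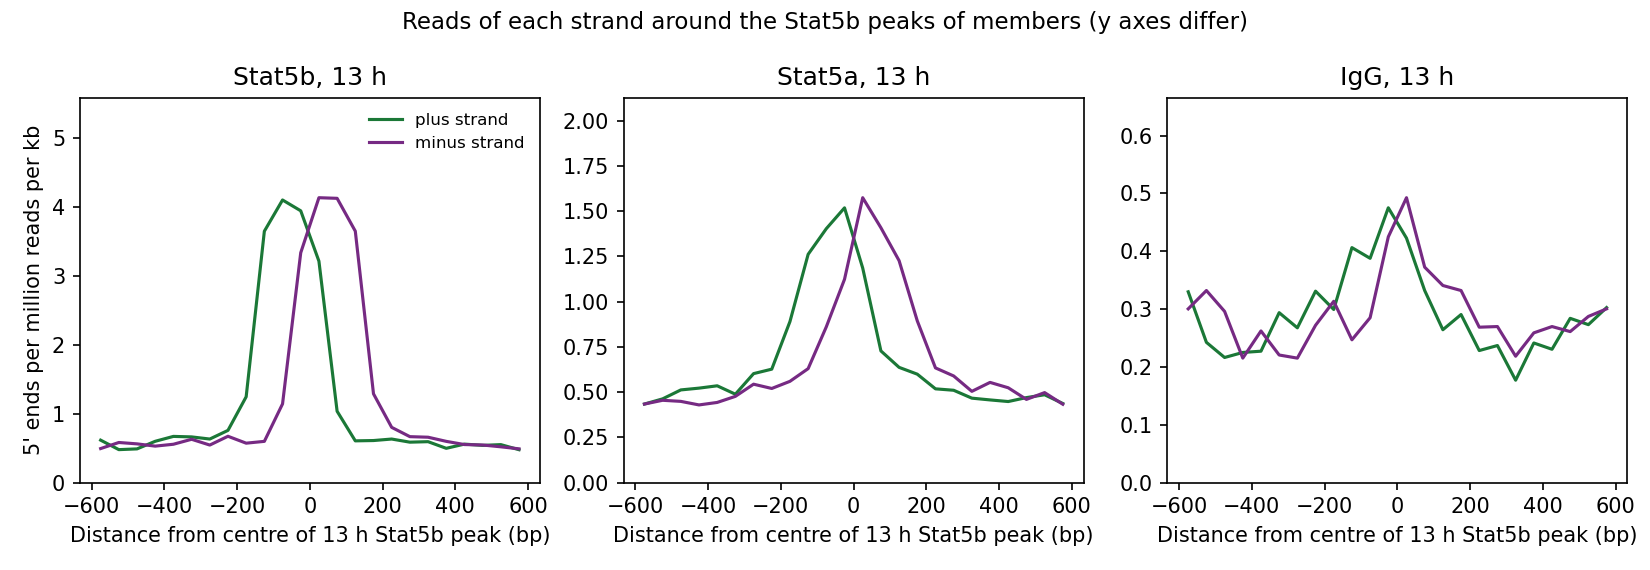
Density of 5' ends on the plus and the minus strand (RPM per kb, 50 bp bins) against distance in bp from the centre of the 13 h Stat5b peak over all members, for Stat5b, Stat5a and IgG at 13 h; the y axes differ. Plus-strand reads lie left and minus-strand reads right of the centre for both Stat5 antibodies, and less strongly for IgG. In members under 20 IgG reads the measured shift was 96 bp for Stat5b, 97 bp for Stat5a and 26 bp for IgG.

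Members with more Stat5b reads more often had a Stat5a peak. The members were ranked by 13 h Stat5b reads and split into 4 groups of 607 or 608. From the group with the fewest reads (7 to 12) to that with the most (20 to 100), the share with a Stat5a peak was 6.41%, 8.88%, 14.5% and 24.2%. The Stat5a level was 1.73, 2.01, 2.40 and 3.06 RPM per kb in these groups. The ratio of Stat5a to IgG showed no such order, at 2.84, 3.53, 3.32 and 3.01, while IgG had 0.610, 0.569, 0.722 and 1.02 RPM per kb. Stat5a and IgG levels thus both were highest in the top group. The ranking used reads over the whole merged region, and a joined Stat5a peak can widen that region. Median width was 379 bp in members with a Stat5a peak and 289 bp in those without. Wider regions collect more reads, so the rise in the share with a Stat5a peak may be partly built in. Per kb, the 13 h Stat5b level was similar in members with and without a Stat5a peak. The part of width in the rise was not tested.

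Many members lay near peaks of the other stages. The median gap to the nearest 8 h or 2 rounds peak was 5803 bp in members, and 17693 bp in the regions with a Stat5a peak alone. Within 10000 bp of such a peak lay 1499 members (61.7%), against 2426 (38.3%) of the regions with a Stat5a peak alone. A 2 rounds Stat5b peak lay within 10000 bp of 1427 members (58.7%), whereas 605 members (24.9%) had an 8 h peak so near. In the regions with a Stat5a peak alone the numbers were 2312 (36.5%) and 703 (11.1%). This order was thus not particular to the members. The lengths of the peak lists were not taken into account, and the shares of all merged regions were not computed. A gap under 1000 bp was found in 525 members (21.6%). Without those members Stat5b after 2 rounds was 0.511-fold its 13 h level, and the ratios to IgG at 13 h in members without a Stat5a peak were 7.97 for Stat5b and 2.45 for Stat5a.

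The edge of the selection was not sharp. The 112 members within 100 bp of an 8 h or 2 rounds peak had medians of 3 Stat5b reads at 8 h, 15 at 13 h and 6 after 2 rounds. The 188 Stat5b peaks at 13 h that shared 1 to 100 bp with such a peak, and so were left out, had 5, 17 and 8. Another 8 Stat5b peaks touched no peak of the other stages but were left out because a 13 h Stat5a peak joined them to one.

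The 10 members with the most 13 h Stat5b RPM above IgG all carried a 13 h Stat5a peak. The first, chrX:145762117-145762701, had 5 Stat5b, 6 Stat5a and 0 IgG reads at 8 h, 77, 35 and 3 at 13 h, and 25, 21 and 7 after 2 rounds. Stat5b at 13 h was 21.4-fold (7.05 to 106) over IgG and 11.7-fold (4.80 to 37.1) over 8 h, and Stat5a was 10.6-fold (3.33 to 53.7) over IgG. After 2 rounds it kept 0.383-fold (0.234 to 0.609) of its 13 h Stat5b and lay 36805 bp from the nearest 8 h or 2 rounds peak. Here both antibodies were high at 13 h and both still had reads after 2 rounds.

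The widest member, chr13:85980350-85981270 (921 bp), had 16 Stat5b, 15 Stat5a and 2 IgG reads at 8 h, 82, 39 and 9 at 13 h, and 31, 19 and 8 after 2 rounds. In RPM, Stat5a was 4.79 at 8 h, 4.69 at 13 h and 2.86 after 2 rounds, while Stat5b was 2.33, 9.08 and 4.05. It resembled the sum over all members, with Stat5b high at 13 h and Stat5a as high at 8 h as at 13 h. It carried a Stat5a peak, however, and members with that peak together had 3.15 RPM per kb of Stat5a at 8 h and 4.98 at 13 h.

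At chr10:59188279-59188853 the 13 h signal stood alone more plainly. It had 4 Stat5b, 3 Stat5a and 1 IgG read at 8 h, 46, 18 and 0 at 13 h, and 4, 3 and 3 after 2 rounds. Stat5b at 13 h was 8.74-fold (3.19 to 33.4) over 8 h and its interval over IgG, which had 0 reads, began at 9.97-fold. After 2 rounds it was 0.103-fold (0.0268 to 0.281) its 13 h level. This member was among the 10 with the most Stat5b above IgG and among the 10 with the most 13 h reads of those called lower after 2 rounds, and of the second 10 it was the 1 whose call held on distinct starts, at 0.144 (0.0277 to 0.473).

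**Figure D5:**
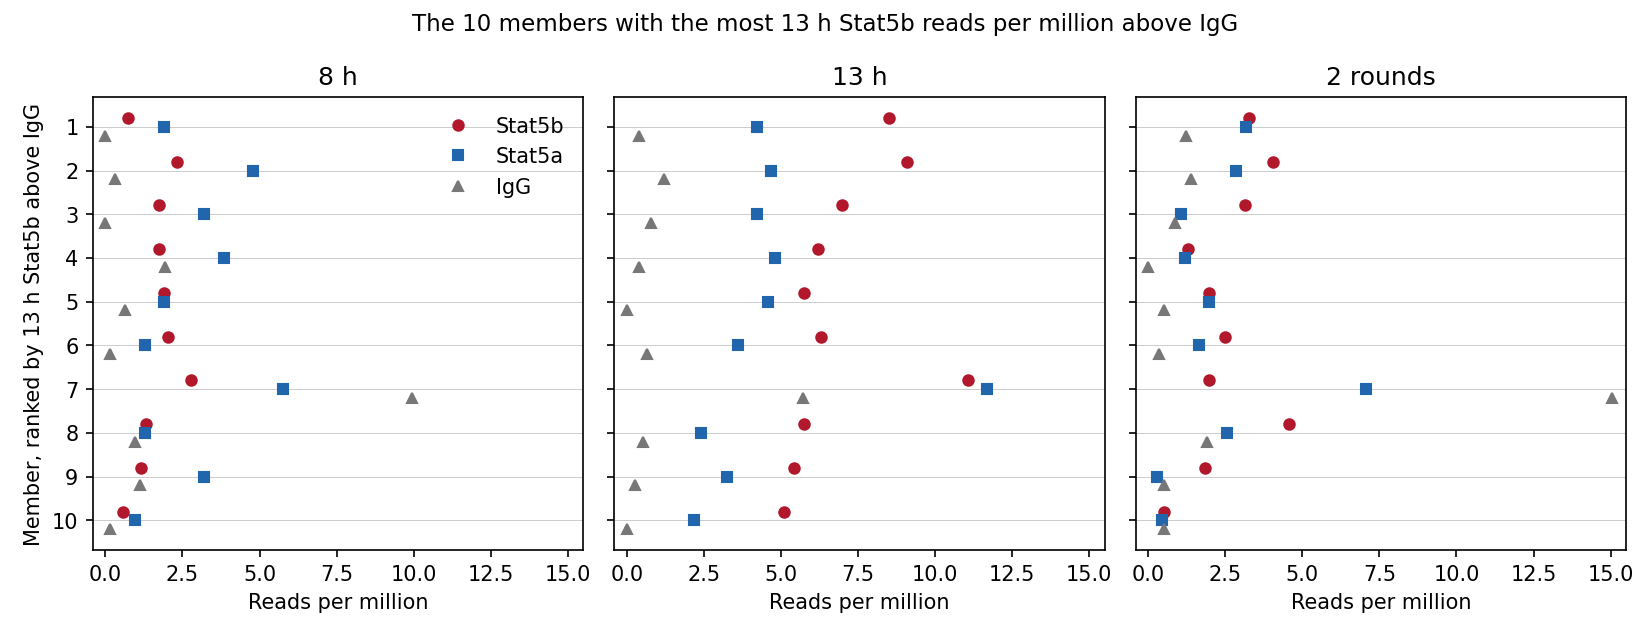
RPM in 9 single libraries for the 10 members with the most 13 h Stat5b RPM above IgG, ranked from the top, with 1 panel per stage. Stat5b lies right of IgG at 13 h in all 10, and member 7 has the highest IgG values at every stage.

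Of these 10 members 9 were called higher than IgG for Stat5b at 13 h, with all reads and with distinct starts. The exception, the seventh, was chr1:12629906-12630135, which was high in the controls too. It had 19 Stat5b, 18 Stat5a and 62 IgG reads at 8 h, 100, 97 and 43 at 13 h, and 15, 47 and 87 after 2 rounds. Its 100 Stat5b reads were the most of any member, yet Stat5b was 1.94-fold (1.34 to 2.84) over IgG, and 1.19-fold (0.544 to 2.66) on distinct starts. Other members with at least 20 IgG reads in a library were singled out after their values were seen. Among them chr11:25000082-25000277 had 6.75 Stat5b, 5.54 Stat5a and 5.58 IgG RPM at 13 h, and chr14:103222578-103222759 had 4.98, 5.54 and 4.39. Both were also named for the fall of Stat5b after 2 rounds, in regions where Stat5b at 13 h did not exceed IgG beyond counting error.

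The strongest members differed in what came after 13 h. At chr9:56726149-56726874 there were 9 Stat5b, 4 Stat5a and 6 IgG reads at 8 h, 52, 20 and 4 at 13 h, and 35, 17 and 11 after 2 rounds, so that Stat5b after 2 rounds was 0.794-fold (0.502 to 1.24) the 13 h level. At chr10:39173549-39174187 there were 12 Stat5b, 12 Stat5a and 12 IgG reads at 8 h, 56, 40 and 3 at 13 h, and 10, 8 and 0 after 2 rounds. Stat5b there was 0.211-fold (0.0959 to 0.417) the 13 h level after 2 rounds, and at 8 h its Stat5b level was 1.75 RPM and IgG 1.92 RPM. The first of these regions thus showed no loss beyond counting error, whereas the second was called lower. At chr17:62502148-62502504 as at chr15:93776626-93776966 below, there was 1 Stat5b read at 8 h and 42 at 13 h, a ratio of 31.9 (5.42 to 1290).

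By the lower limit of Stat5a over IgG at 13 h the first member was chr7:24088550-24089232, also the fifth by Stat5b. It had 13 Stat5b, 6 Stat5a and 4 IgG reads at 8 h, 52, 38 and 0 at 13 h, and 15, 13 and 3 after 2 rounds, so the intervals over IgG at 13 h began at 11.3-fold for Stat5b and 8.88-fold for Stat5a. With IgG set at a floor of 3 reads, Stat5b was 14.4-fold and Stat5a 11.5-fold over IgG, values that are not the lower limits of the intervals. At chr2:112085681-112086057 Stat5a stood above Stat5b, with 3.13 Stat5a, 2.44 Stat5b and 0 IgG RPM at 13 h, and its Stat5b after 2 rounds was 0.805-fold (0.388 to 1.62) the 13 h level. This second member shows no fall of Stat5b beyond counting error. Among the 10 members named for Stat5a, 6 kept the call on distinct starts.

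Among the 10 members with the most 13 h Stat5b reads of those called lower after 2 rounds, 2 had no Stat5a peak. At chr19:31976508-31976902 there were 8 Stat5b, 2 Stat5a and 1 IgG read at 8 h, 42, 10 and 0 at 13 h, and 4, 0 and 3 after 2 rounds. Its intervals over IgG at 13 h began at 9.07-fold for Stat5b and 2.03-fold for Stat5a. At chr15:93776626-93776966 there were 1 Stat5b, 2 Stat5a and 0 IgG reads at 8 h, 42, 11 and 9 at 13 h, and 6, 1 and 0 after 2 rounds. There Stat5a was 1.11-fold (0.417 to 3.02) over IgG, so Stat5a did not differ from IgG beyond counting error, and Stat5b was 3.89-fold (1.87 to 9.08), an interval that did not lie wholly above 2. No member was called higher for Stat5b after 2 rounds over 13 h.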

How the data were processed

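The members and comparisons were chosen with earlier results of these data known. The authors deposited, per the files, 1 list of mapped reads for each of 9 libraries and 1 list of peaks for each of 6 ChIP libraries; the values are positions in bp of the mm8 build, with no height, score or p-value. Per the labels the series holds 22 lanes. Neither the aligner nor the peak caller and its threshold is named in the labels or files. Reads of 24 bp were moved by 1 bp to align with 25 bp reads, an offset that is clear only in Stat5a at 13 h.

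Reads were assigned to regions by their 5' ends and scaled per 1000000 reads of the library. Ratios carry 95% exact conditional (Clopper-Pearson) intervals, and a region was called higher when the interval lay wholly above 2 and lower when wholly below 0.5. Reads carry no molecular identifiers, so intervals and the floor of 3 counts cover counting error only. A heap is a single start and strand with more than 50% of 20 or more reads of a region.

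Named members are, without heaps, the 10 with the most 13 h Stat5b RPM above IgG, the 10 with the largest lower limit of Stat5a over IgG at 13 h, and the 10 called lower for Stat5b after 2 rounds with the most 13 h reads. Alternatives were other scaling, distinct starts, 25 bp reads alone, reads moved 75 bp, 500 bp windows, 300 bp around peak centres, pooled IgG and other ways of joining peaks. Genes and sequences were not analysed here, since the tables at hand are of another build (GRCm38.p6). Software was scipy 1.17.1, numpy 2.4.6 and pandas 2.3.3 under Python 3.11.15, with figures by matplotlib 3.10.9.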

Additional observations from a re-analysis of the deposited data

Results flagged for a closer look

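Between 8 h and 13 h the 2 antibodies moved apart in the members. Stat5b at 13 h was 3.69-fold its 8 h level and Stat5a 0.955-fold. Over all merged regions Stat5b was 1.295-fold and Stat5a 0.943-fold. In the gained and kept regions they were 2.57-fold and 1.08-fold, so the parting was not particular to the members. In members without a 13 h Stat5a peak Stat5b was 3.91-fold and Stat5a 0.783-fold. After 2 rounds over 13 h Stat5b in those members was 0.516-fold and Stat5a 1.06-fold. Whether the antibodies differ was not tested, because each group has 1 library, and the members were chosen by Stat5b peaks at 13 h, which fixes the direction for Stat5b. The Stat5a libraries at 13 h and after 2 rounds hold 24 bp reads that the Stat5b libraries lack. With 25 bp reads alone Stat5a at 13 h was 1.10-fold its 8 h level in all members and 0.916-fold in members without a Stat5a peak.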

How the results depend on the processing

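No paired analysis was possible because each group has 1 library, and for the same reason no library could be left out. The main limits are few reads per member and 1 library per group. Of the 137 values recomputed for the counts and the summed ratios over all members, 94 kept their direction and stayed within the counting interval or within 1.5 times the count. Of 316 further values, for the sets split by Stat5a peak, IgG and single members, 245 did so, 44 moved, 26 lost a call and 1 gained one. The cause of the other shifts was not tested. With peaks in the upper 50% of the 13 h Stat5b list alone, 387 regions met the rule. Counting each start and strand once gave 322 higher calls for Stat5b over IgG, 30 for Stat5a over IgG, 76 for Stat5b at 13 h over 8 h and 16 lower after 2 rounds. It gave 0 higher and 0 lower for Stat5a at 13 h over 8 h, 0 higher and 1 lower for Stat5a after 2 rounds, 0 lower for IgG at 13 h over 8 h and 1 higher for IgG after 2 rounds. For IgG 0.0686% of all regions were called lower over 8 h and 0.0594% higher after 2 rounds. The other shares on distinct starts are given above. With 25 bp reads alone the calls were 343 for Stat5b over IgG, 87 for Stat5a over IgG, 14 lower for Stat5a over 8 h, 18 lower for Stat5a after 2 rounds, 5 higher and 3 lower for IgG over 8 h and 41 higher for IgG after 2 rounds. With 24 bp reads alone (chosen after the data were seen) Stat5a over IgG had 35 calls. Reads moved by 75 bp gave 1 lower call for Stat5a over IgG, and 500 bp windows gave 1 higher call for Stat5b after 2 rounds and 1 for IgG over 8 h. Apart from distinct starts, the shares of all regions called under these settings were not computed. Nothing is therefore read from those counts about the members. Stat5b over IgG at 13 h was 8.24 when scaled by reads outside regions, 7.52 with moved reads, 8.43 with 25 bp reads, 5.90 in 500 bp windows, 7.53 in 300 bp around the peak centre (chosen after the data were seen) and 5.92 with pooled IgG. Stat5a over IgG at 13 h was 3.28 when scaled so, 3.92 with 25 bp reads, 2.20 with 24 bp reads, 2.78 in 500 bp windows and 2.40 with pooled IgG. Stat5b at 13 h over 8 h was 3.32 on distinct starts and 3.01 in 500 bp windows. Stat5b after 2 rounds over 13 h was 0.598 when scaled by reads outside regions, 0.544 on distinct starts, 0.553 with moved reads, 0.650 in 500 bp windows and 0.511 without members within 1000 bp of an 8 h or 2 rounds peak, a setting chosen after the data were seen. Stat5a after 2 rounds over 13 h was 0.900 in 500 bp windows and 0.829 without those near members. Among the summed ratios of all members 1 value changed direction: Stat5a at 13 h over 8 h was 1.10 with 25 bp reads alone, against 0.955 with all reads. Without the 6 members with at least 20 IgG reads, also chosen after the data were seen, the ratios over IgG at 13 h in members with a Stat5a peak were 8.40 for Stat5b and 6.91 for Stat5a.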
